A study of Mus musculus with 23 samples.

Results

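The interferon-stimulated antiviral genes are 41 named mouse genes whose products sense, block or regulate the defence against viruses, and they were followed here in the small intestine of busulfan-treated mice that received saline or a faecal microbiota transplant (FMT). They are a named list, chosen with earlier results of these data known. Of the 41 genes, 40 had an entry among the 19215 of the expression table, Mx2 was not analysed here, and all 40 passed the filter on low values (a mean of at least 1 FPKM, fragments per kilobase of transcript, scaled to the mapped fragments of the library), as did 11337 entries in all. Every value given below is an FPKM level, or a change on the log2(FPKM + 1) scale where it is called a log2 change.

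Interferons are secreted proteins that cells release when their receptors detect foreign nucleic acids. Type I interferons signal through Ifnar1 and Ifnar2 on nearly every cell and type III interferons through Ifnlr1 and Il10rb, mainly on epithelial cells, and the gut epithelium is known for its strong response to the latter. Both receptors activate a complex of transcription factors, with Stat2 and Irf9 in it, that binds the interferon-stimulated response element in the promoters of these genes, and commensal microbes are known to keep a low level of this activity in the healthy intestine.

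The table held 23 RNA-seq libraries of ICR mice, an outbred strain, in 8 groups. All mice, the saline controls included, had received busulfan, an alkylating drug used in chemotherapy. As the study's methods give it, male mice had a single dose of 40 mg/kg at 3 weeks of age, were gavaged daily for 1 week from the next day and were killed at 5 weeks of age. Sa mice received saline. Con-FMT mice received luminal content pooled from donors dosed with water, and A10-FMT and A100-FMT mice received content pooled from donors dosed for 3 weeks with alginate oligosaccharides (AOS), sugars cut from seaweed alginate, at 10 or 100 mg/kg. Each of the 4 treatments occurred in set 1 and in set 2, with 3 libraries per group except for Sa of set 1 with 2 (replicates 1 and 3). What separates the sets is not stated, and whether both followed the same schedule is not stated. Each donor content was a pool, so a group describes 1 transplant preparation at most, and no mice without busulfan were among the libraries.

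The FPKM of a library summed to 556466 to 612482 in 22 libraries and to 667957 in Sa set 1 replicate 3. In that library the deviation of a gene from its median over the libraries followed the gene's GC content (Spearman rho of 0.698 across the genes tested). In the others rho was between -0.227 and 0.222. Over the 40 members rho was 0.833 in that library. In the others it ran from -0.594 (A100-FMT set 1 replicate 3) to 0.396 (A10-FMT set 2 replicate 1), with -0.578 in Con-FMT set 1 replicate 3. Its title and its description name different columns of the table. The column of the title is used, and the main counts and medians of the members that rest on it are also given without it or with the other column. Most values of single genes are given with it alone. Epithelial markers (Epcam, Vil1, Fabp2 and 7 more) summed to 8085 to 11541 FPKM per library, so the labelled tissue showed its defining markers in every library. In bulk tissue, fewer cells of a type and less RNA per cell cannot be told apart.

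An element of the interferon pathway was looked for in the promoters of the members. Of the 40 members, 30 had an entry among the RefSeq promoters of the GRCm38.p6 build (250 bases before to 50 after the start), the same assembly as the mm10 build named in the submitters' processing notes. The core of the interferon-stimulated response element, GAAANNGAAA on either strand, was found in 14 of the 30 (46.7%). It was found in 3.99% of all 27025 genes with a promoter entry and in 3.80% of the genes tested that had one. A gene with several entries was counted once, with a match in any of them. The stretches that hold it are printed below for the called members Ifit1, Isg15, Oas3, Rsad2, Stat2 and Trim30a and for the gene pair Ifit3 and Ifit3b, each on the gene's own strand from 5′ to 3′, with the matching bases in capitals (TTTCNNTTTC is the same element on the other strand). No match was found for the called members Ifit2, Oasl1, Oasl2, Irf7, Cmpk2 and Parp12. A match of letters is a description and not a measured binding site.
Ifit1 (plus strand, chr19:34640765-34640833): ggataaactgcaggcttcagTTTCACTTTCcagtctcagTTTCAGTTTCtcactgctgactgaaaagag
Isg15 (minus strand, chr4:156200855-156200916): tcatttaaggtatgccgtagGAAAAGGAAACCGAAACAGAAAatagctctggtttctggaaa
Oas3 (minus strand, chr5:120777705-120777754): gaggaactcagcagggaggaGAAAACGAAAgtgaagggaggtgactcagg
Rsad2 (minus strand, chr12:26456543-26456592): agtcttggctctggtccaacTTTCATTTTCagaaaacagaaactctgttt
Stat2 (plus strand, chr10:128270256-128270305): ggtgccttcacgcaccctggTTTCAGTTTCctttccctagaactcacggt
Trim30a (minus strand, chr7:104465200-104465249): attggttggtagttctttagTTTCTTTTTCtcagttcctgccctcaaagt
Ifit3 (plus strand, chr19:34583353-34583436): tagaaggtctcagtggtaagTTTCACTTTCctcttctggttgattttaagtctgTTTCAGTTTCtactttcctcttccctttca
Ifit3b (plus strand, chr19:34607749-34607832): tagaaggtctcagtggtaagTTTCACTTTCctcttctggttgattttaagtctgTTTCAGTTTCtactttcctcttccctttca
Ifit1 holds 2 copies of the element, between 124 and 56 bases before its start, and Isg15 holds 3 overlapping ones between 98 and 37 bases before its start. The stretches of Ifit3 and Ifit3b were identical at 84 of 84 bases. These are neighbouring near-copies, so reads may have been shared between them, and the separate levels of Ifit3 and Ifit3b, like those of the similar genes Oas1a and Oas1g, are uncertain.

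The members were higher after FMT from control donors than after saline in both sets. In set 2, 39 of 40 members had a positive log2 change in Con-FMT against Sa. For 34 of 40 all 3 Con-FMT libraries were above all 3 Sa libraries, which was so for 6.3% of all genes tested. The median log2 change of the members was 0.35, against -0.01 over all genes. Only Ly6a and Parp12 passed the test within set 2 (2 of 40, against 0.0353% of all genes increased, by limma with Benjamini-Hochberg adjustment over all genes), and 24 of 40 had an unadjusted p under 0.05, against 5.74% of all genes. Within set 2, A10-FMT and A100-FMT were closer to saline, with median log2 changes of 0.04 and 0.15. In these groups 6 and 12 members were above Sa without overlap, against 19.2% and 18.4% of all genes, so the share was below that of the table as a whole for A10-FMT and above it for A100-FMT. No member passed the test in either (increases among all genes were 0.0882% and 0.0176%), and 6 and 11 had an unadjusted p under 0.05, against 14.4% and 14.2% of all genes. All 3 comparisons of a set share its Sa libraries. The 2 calls of Con-FMT were lost (0 called) without any 1 of the 6 Sa and Con-FMT libraries of set 2. Libraries outside the comparison enter it through the filter and the shared estimate of the spread alone. Of these, leaving out either Sa library of set 1 gave 7 calls (0.115% of all genes), A10-FMT set 2 replicate 1 gave 4 and A10-FMT set 1 replicate 3 kept the count at 2. The count was 0 without A10-FMT set 1 replicate 1, A100-FMT set 1 replicate 2, A10-FMT set 2 replicate 2 or A100-FMT set 2 replicate 3, and 1 without each of the others.

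**Figure D1:**
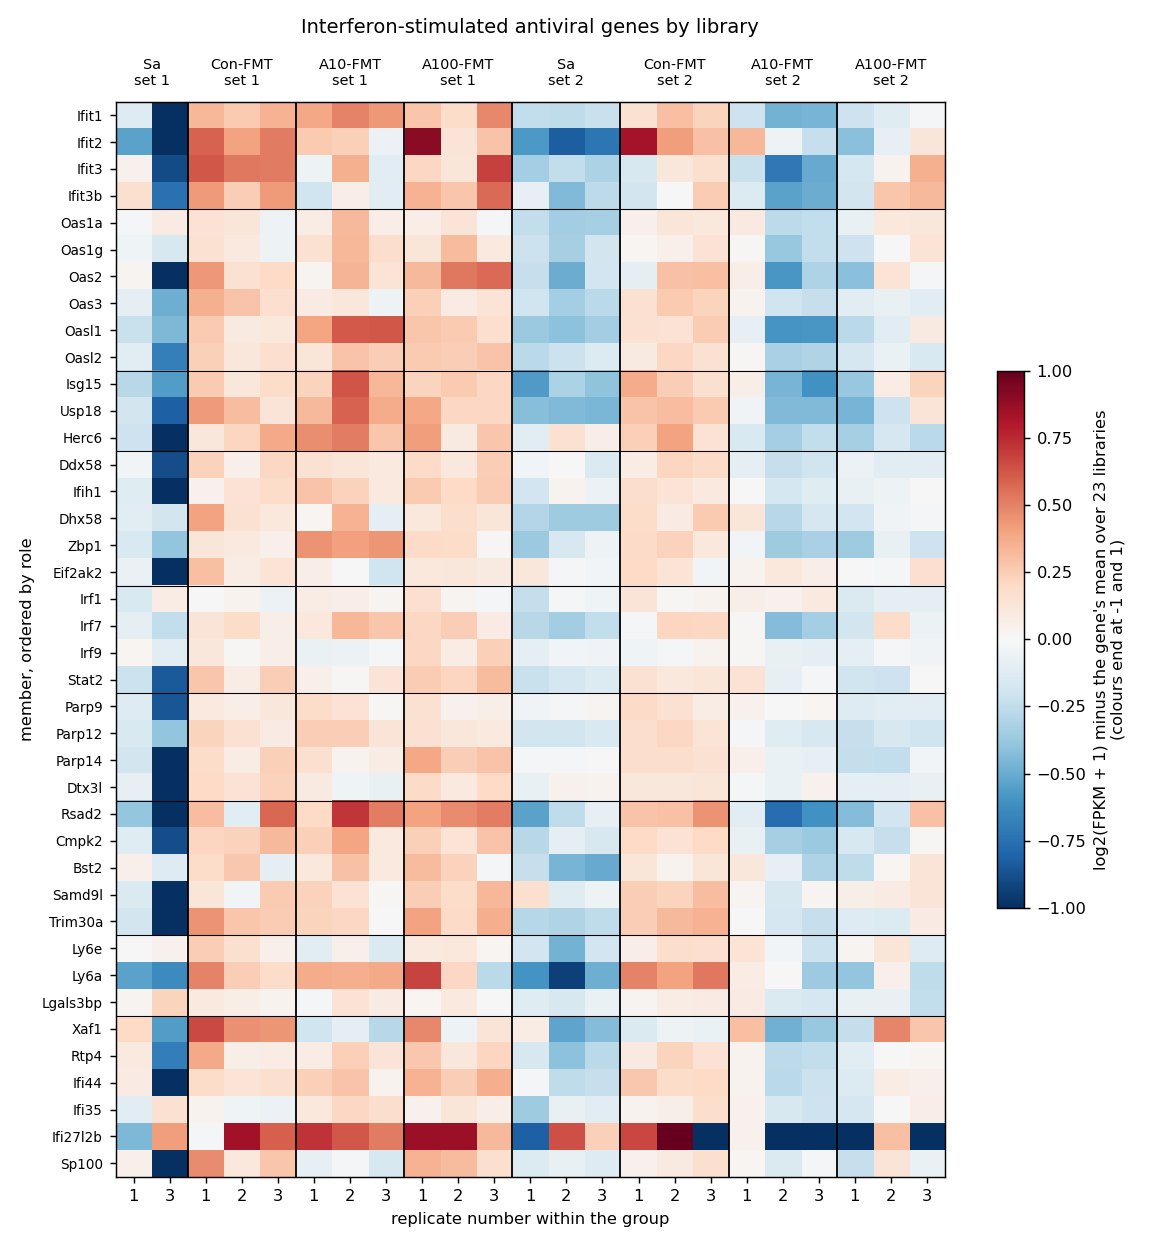
Colours give log2(FPKM + 1) of the 40 members (rows, ordered by role) in the 23 libraries (columns, by group and replicate number) minus the gene's mean over the libraries, from blue (lower) to red (higher), with colours ending at -1 and 1. The Con-FMT columns of both sets are mostly red, Sa is mostly blue in both sets with replicate 3 of set 1 the lowest, and A10-FMT and A100-FMT are red in set 1 and mixed or blue in set 2.

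In set 1 the members were higher in all 3 FMT groups. The limma test called 30 of 40 increased in Con-FMT (17.7% of all genes). For A10-FMT it called 27 (13.6%) and for A100-FMT 30 (22%). None was called decreased, where 9.17%, 18.4% and 13.1% of all genes were. The median log2 changes were 0.64, 0.60 and 0.67, against 0.05, -0.01 and 0.05 over all genes. These values rest on Sa set 1 replicate 3, which was the lowest of all 23 libraries for 27 of the 40 members. Without it the 3 medians were all 0.27, and Con-FMT had 0 members called (0% of all genes increased), A10-FMT 9 (3.53%) and A100-FMT 2 (0.194%). The count of Con-FMT also dropped to 0 without its replicate 1 and to 1 without its replicate 3. With the column that the description names in its place, the medians were 0.53, 0.51 and 0.58 and 15, 30 and 29 were called, against 0.37%, 10.6% and 5.75% of all genes.

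Over the mean of both sets, all 40 members had a positive change in Con-FMT against Sa, with a median log2 change of 0.48 (0.02 over all genes). The test called 17 of 40 increased, against 0.67% of all genes. For A10-FMT the median was 0.30 with 3 called (0.106% of all genes), and for A100-FMT it was 0.40 with 9 called (0.829%). Without Sa set 1 replicate 3, 13, 0 and 0 members were called (0.335%, 0% and 0% of all genes) and the medians were 0.30, 0.15 and 0.21. Without Sa set 1 replicate 1, the counts were 36, 30 and 34 and the medians 0.65, 0.48 and 0.57, while 31.3%, 28% and 33.2% of all genes were called increased. The 3 calls of A10-FMT were lost (0 called) without any 1 of its 6 libraries or without Sa set 2 replicate 2 or 3, as were the 9 of A100-FMT (0 called) without any 1 of the Sa libraries of set 2 or without A100-FMT set 1 replicate 1 or set 2 replicate 2 or 3. Fitted on the compared groups alone, 8, 0 and 0 were called (0.123%, 0.00882% and 0% of all genes). The gene values over both sets given below hold Sa set 1 replicate 3 and come from the fit of all 8 groups. Every rise named there, in Con-FMT as in A10-FMT or A100-FMT, carries the limits of its group. For Con-FMT the count fell from 17 to 13 without that library and to 8 on the compared groups alone.

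**Figure D2:**
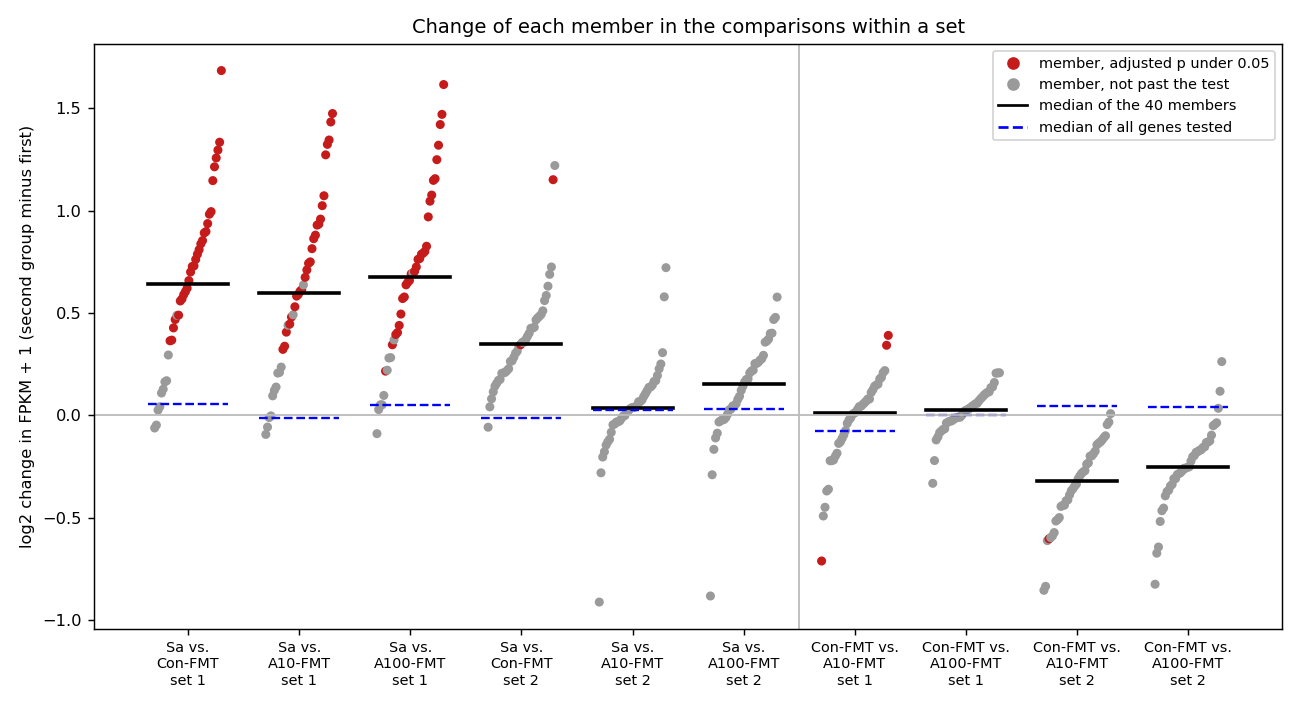
Each dot is the log2 change of 1 member (y axis, on FPKM + 1, second group minus first) in 10 comparisons within a set, red where the adjusted p was under 0.05 and grey otherwise. Black lines are the medians of the 40 members and dashed blue lines those of all genes tested. In set 2 the black line is at 0.35 for Sa vs. Con-FMT and at -0.32 and -0.25 for Con-FMT vs. A10-FMT and A100-FMT.

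The Ifit genes encode proteins that bind viral RNA and block its translation. They lie side by side on chromosome 19, and 2 of the 4 (Ifit1 and Ifit2) rose in Con-FMT over both sets. Ifit1 (chromosome 19, 34640889 to 34650009 in GRCm38, NCBI Gene 15957) was at 44.6, 44.3 and 45.4 FPKM in Sa, 59.1, 65.6 and 62.1 FPKM in Con-FMT, 45.7, 37.8 and 38.1 FPKM in A10-FMT and 45.7, 48.6 and 52.3 FPKM in A100-FMT in set 2. Its levels in set 1 were 48.4 and 17.6 FPKM in Sa, 67.1, 63.6 and 67.8 FPKM in Con-FMT, 69.6, 75.2 and 72.1 FPKM in A10-FMT and 64.4, 60.4 and 74.5 FPKM in A100-FMT. Con-FMT was above Sa without overlap in both sets, while A10-FMT was above Sa in set 1 and overlapped with it in set 2. The log2 change in Con-FMT over both sets was 0.81 ± 0.16 (SE, adjusted p = 0.018), and in A10-FMT and A100-FMT it was 0.56 ± 0.16 (SE, adjusted p = 0.11) and 0.63 ± 0.16 (SE, adjusted p = 0.054), which did not pass the test.
Ifit2 (chromosome 19, 34550550 to 34576534) binds AU-rich RNA and promotes cell death. Its levels in set 2 were 16.8, 13.98 and 15.1 FPKM in Sa, 46.1, 34.4 and 31.5 FPKM in Con-FMT, 32.3, 24.5 and 21.6 FPKM in A10-FMT and 18.9, 23.99 and 27.8 FPKM in A100-FMT. In set 1 they were 17.3 and 6.51 FPKM in Sa, 38.9, 34.1 and 37.04 FPKM in Con-FMT, 30.7, 30.2 and 24.5 FPKM in A10-FMT and 48.5, 27.95 and 31.2 FPKM in A100-FMT. All FMT libraries of a set exceeded all Sa libraries of that set, and Con-FMT of set 2 was 2.44-fold the Sa mean. Over both sets Con-FMT gave a log2 change of 1.45 ± 0.19 (SE, adjusted p = 0.0017), A10-FMT one of 1.02 ± 0.19 (SE, adjusted p = 0.043) and A100-FMT one of 1.10 ± 0.19 (SE, adjusted p = 0.028). Ifit2 and Ly6a were the members called in all 3 FMT groups over both sets.
Ifit3b had the lowest mean of all members. It was at 8.15, 6.13 and 7.05 FPKM in Sa, 7.5, 8.69 and 10.5 FPKM in Con-FMT, 7.8, 5.67 and 5.85 FPKM in A10-FMT and 7.53, 10.7 and 11.1 FPKM in A100-FMT in set 2. Set 1 gave 9.78 and 4.77 FPKM in Sa, 11.97, 10.4 and 12 FPKM in Con-FMT, 7.42, 9.1 and 7.93 FPKM in A10-FMT and 11.3, 10.7 and 13.3 FPKM in A100-FMT. Con-FMT overlapped with Sa in set 2, and the log2 change over both sets, 0.47 ± 0.14 (SE, adjusted p = 0.13), did not pass the test, nor did that of Ifit3 (0.66 ± 0.15 SE, adjusted p = 0.052).

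The Oas enzymes are sensors of double-stranded RNA that make a second messenger for RNase L, which degrades RNA. The Oas-like protein Oasl1 has lost that activity and is known to restrain the translation of Irf7. Of the 6 members of this family on chromosome 5, Oas3, Oasl1 and Oasl2 rose in Con-FMT over both sets and also in A100-FMT, and none passed the test in A10-FMT.
Oas3 (chromosome 5, 120753098 to 120777684) was at 37.04, 33.5 and 35.3 FPKM in Sa, 47.6, 51.4 and 50.1 FPKM in Con-FMT, 43.8, 37.1 and 36.2 FPKM in A10-FMT and 39.6, 40.6 and 39.6 FPKM in A100-FMT in set 2. The levels of set 1 were 40.1 and 30.1 FPKM in Sa, 55, 52.3 and 48.1 FPKM in Con-FMT, 45.3, 46.4 and 41.2 FPKM in A10-FMT and 50.5, 45.3 and 46.9 FPKM in A100-FMT. Con-FMT was the highest group in both sets, and all its libraries were above every Sa library. The log2 change was 0.52 ± 0.07 (SE, adjusted p = 0.0017) in Con-FMT and 0.31 ± 0.07 (SE, adjusted p = 0.040) in A100-FMT.
Oasl1 (chromosome 5, 114923143 to 114937911) had the smallest p of all members between the sets of A10-FMT. Its levels were 64.96, 63.4 and 66.1 FPKM in Sa, 93.9, 93.5 and 101 FPKM in Con-FMT, 79.8, 55.7 and 56.1 FPKM in A10-FMT and 69.7, 77.9 and 89.9 FPKM in A100-FMT in set 2. They were 72.1 and 61.6 FPKM in Sa, 101, 90.1 and 90.9 FPKM in Con-FMT, 111, 129.6 and 131 FPKM in A10-FMT and 102, 101 and 95.1 FPKM in A100-FMT in set 1. Con-FMT was alike in both sets, while A10-FMT was the highest group of set 1 and overlapped with Sa in set 2. The log2 change over both sets was 0.53 ± 0.09 (SE, adjusted p = 0.0071) in Con-FMT and 0.42 ± 0.09 (SE, adjusted p = 0.040) in A100-FMT.
Oasl2 was the most abundant Oas member, with 167, 174 and 183 FPKM in Sa, 215, 233 and 224 FPKM in Con-FMT, 203, 161 and 163 FPKM in A10-FMT and 179.7, 193 and 181 FPKM in A100-FMT in set 2. In set 1 it had 187 and 125 FPKM in Sa, 238, 218 and 227 FPKM in Con-FMT, 219, 246 and 240.0 FPKM in A10-FMT and 243, 239 and 245 FPKM in A100-FMT. Con-FMT exceeded Sa in both sets and A10-FMT and A100-FMT did so without overlap in set 1 alone. Its log2 change was 0.46 ± 0.08 (SE, adjusted p = 0.0096) in Con-FMT and 0.37 ± 0.08 (SE, adjusted p = 0.040) in A100-FMT. Oas1a (0.22 ± 0.07 SE, adjusted p = 0.14), Oas1g (0.24 ± 0.07 SE, adjusted p = 0.14) and Oas2 (0.66 ± 0.17 SE, adjusted p = 0.091) were not called in Con-FMT.

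Isg15 is a ubiquitin-like protein that is attached to other proteins, Herc6 is its ligase in the mouse, and Usp18 removes it and also damps signalling at the type I receptor. Isg15 and Usp18 rose in Con-FMT and in A100-FMT over both sets, and Herc6 did not pass the test. Isg15 (chromosome 4, 156199424 to 156200818) was at 131, 156 and 147 FPKM in Sa, 251.3, 232 and 217 FPKM in Con-FMT, 203, 140.5 and 128 FPKM in A10-FMT and 149, 205 and 227 FPKM in A100-FMT in set 2. In set 1 it was at 161 and 132 FPKM in Sa, 234, 211 and 221 FPKM in Con-FMT, 228, 302 and 245 FPKM in A10-FMT and 228, 233 and 225 FPKM in A100-FMT. In set 2 only Con-FMT stood clear of Sa, at 1.61-fold the Sa mean, and replicates of A10-FMT and A100-FMT ran from the Sa level to near that of Con-FMT. The log2 change over both sets was 0.65 ± 0.12 (SE, adjusted p = 0.012) in Con-FMT and 0.53 ± 0.12 (SE, adjusted p = 0.041) in A100-FMT.
Usp18 (chromosome 6, 121245906 to 121270917) was at 37.6, 37.2 and 36.9 FPKM in Sa, 62.2, 63.2 and 61.2 FPKM in Con-FMT, 49.6, 37.3 and 37.3 FPKM in A10-FMT and 36.6, 43.9 and 55.9 FPKM in A100-FMT in set 2. Its set 1 levels were 44.7 and 28.5 FPKM in Sa, 68.6, 63.4 and 55.9 FPKM in Con-FMT, 64.1, 77.4 and 66.2 FPKM in A10-FMT and 66.9, 59 and 58.9 FPKM in A100-FMT. The 3 Sa libraries of set 2 lay within 1 FPKM of each other and the 3 of Con-FMT stood well above them. The log2 change was 0.76 ± 0.11 (SE, adjusted p = 0.0046) in Con-FMT and 0.51 ± 0.11 (SE, adjusted p = 0.040) in A100-FMT.
Herc6, among the 3 lowest members, was at 14.6, 17.7 and 16.6 FPKM in Sa, 18.95, 21.3 and 17.6 FPKM in Con-FMT, 14.2, 12.3 and 13.2 FPKM in A10-FMT and 12.4, 14.1 and 13 FPKM in A100-FMT in set 2. It was at 13.6 and 3.5 FPKM in Sa, 17.3, 18.6 and 20.97 FPKM in Con-FMT, 22.3, 23.02 and 19.5 FPKM in A10-FMT and 21.6, 16.96 and 19.5 FPKM in A100-FMT in set 1. A10-FMT and A100-FMT were below every Sa library in set 2 and above both in set 1. The log2 change in Con-FMT over both sets, 0.76 ± 0.19 (SE, adjusted p = 0.070), did not pass the test.

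**Figure D3:**
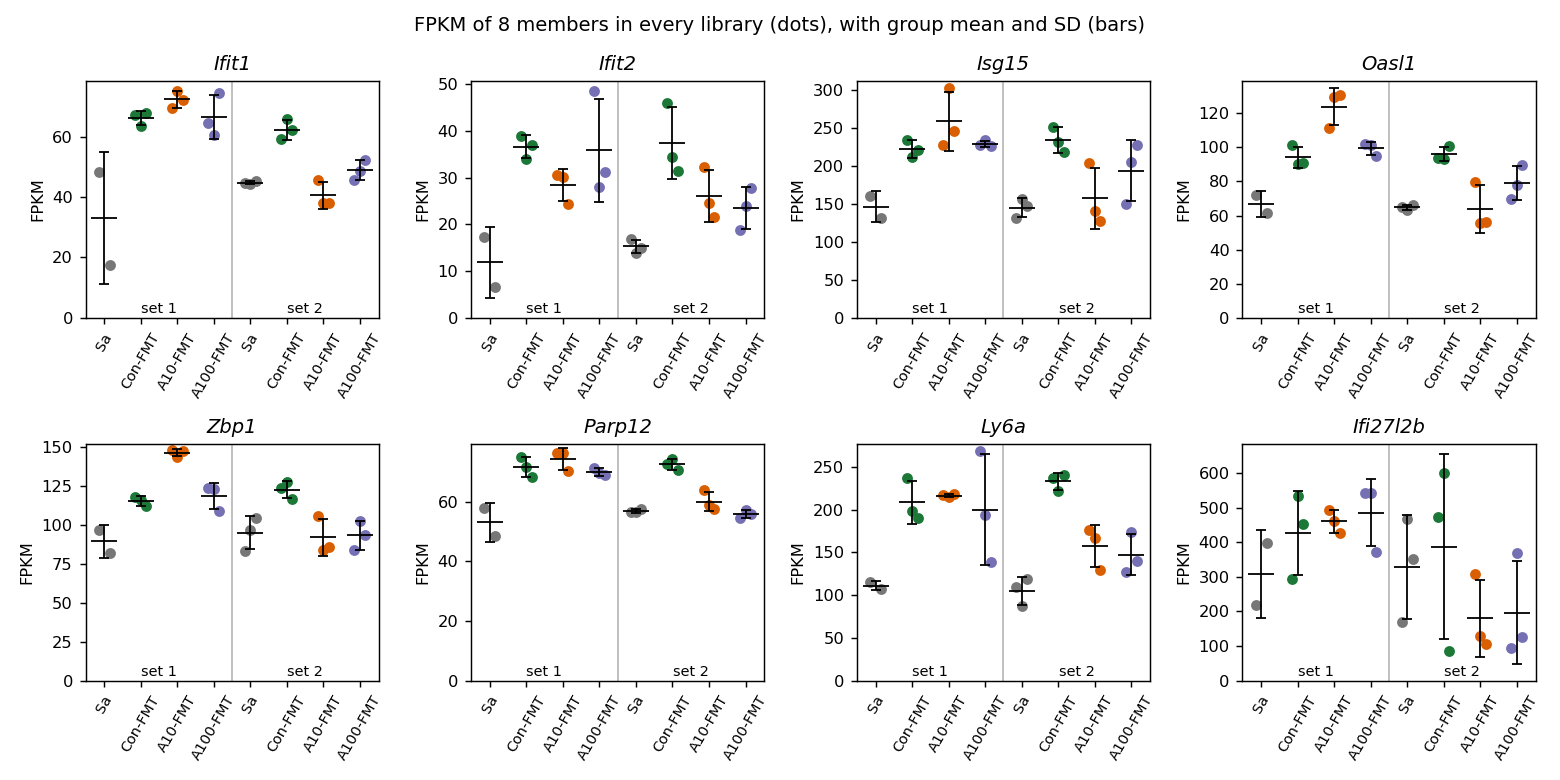
Dots are the FPKM of 8 members (y axes from 0) in every library of the 8 groups, set 1 left and set 2 right of the grey line, and bars are the group mean and SD. Con-FMT was above Sa in both sets for Ifit1, Ifit2, Isg15, Oasl1, Zbp1, Parp12 and Ly6a, A10-FMT was near Sa in set 2 for Ifit1, Oasl1, Zbp1 and Parp12, and Ifi27l2b ran from 86.4 to 599.8 FPKM within Con-FMT of set 2.

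Of the 5 other direct effectors with an entry, Rsad2, Cmpk2 and Trim30a rose in Con-FMT over both sets. Rsad2 (viperin, which makes a chain-terminating nucleotide) and Cmpk2 (the kinase that supplies its substrate) are neighbours on chromosome 12. Rsad2 (chromosome 12, 26442743 to 26456452) was at 7.58, 9.43 and 10.8 FPKM in Sa, 14.1, 14.2 and 15.9 FPKM in Con-FMT, 10.5, 6.34 and 7.18 FPKM in A10-FMT and 8.21, 9.89 and 14.2 FPKM in A100-FMT in set 2. Levels in set 1 were 8.52 and 3.31 FPKM in Sa, 14.4, 10.5 and 17.5 FPKM in Con-FMT, 13.3, 19.4 and 16.7 FPKM in A10-FMT and 15.5, 16.2 and 16.8 FPKM in A100-FMT. Each Con-FMT library exceeded each Sa library of its set, and A10-FMT of set 2 had 2 libraries below all 3 Sa libraries. The log2 change in Con-FMT was 0.92 ± 0.19 (SE, adjusted p = 0.024).
Cmpk2 (chromosome 12, 26469117 to 26479837) was at 34.6, 39.6 and 37.5 FPKM in Sa, 48.6, 46.6 and 48.5 FPKM in Con-FMT, 39.96, 33.3 and 32.4 FPKM in A10-FMT and 37.6, 35.7 and 42.5 FPKM in A100-FMT in set 2. The levels of set 1 were 38.7 and 22.3 FPKM in Sa, 49.1, 49.6 and 52.99 FPKM in Con-FMT, 50.04, 55.8 and 45.1 FPKM in A10-FMT and 49.8, 46.4 and 51.7 FPKM in A100-FMT. They followed those of Rsad2 in having Con-FMT above Sa in both sets and A10-FMT and A100-FMT above Sa without overlap in set 1 alone. The log2 change in Con-FMT was 0.56 ± 0.10 (SE, adjusted p = 0.012).
Trim30a (chromosome 7, 104409025 to 104465193), a mouse Trim protein that tunes inflammatory signalling, was at 26.7, 26.5 and 27.3 FPKM in Sa, 39.1, 41.2 and 41.9 FPKM in Con-FMT, 32.8, 29.1 and 27.8 FPKM in A10-FMT and 29.96, 29.8 and 34.7 FPKM in A100-FMT in set 2. It was at 28.7 and 9.59 FPKM in Sa, 45.03, 40.01 and 39.4 FPKM in Con-FMT, 38.4, 37.99 and 32.8 FPKM in A10-FMT and 43.6, 37.7 and 42.5 FPKM in A100-FMT in set 1. Every FMT library of a set was above every Sa library of that set, with Con-FMT the highest group in set 2. Over both sets it rose in Con-FMT (log2 change of 0.92 ± 0.16 SE, adjusted p = 0.011) and A100-FMT (0.73 ± 0.16 SE, adjusted p = 0.040), and the value of A10-FMT, 0.61 ± 0.16 (SE, adjusted p = 0.098), did not pass the test. Bst2, which tethers budding virions, and Samd9l, which blocks viral translation, had values of 0.33 ± 0.09 (SE, adjusted p = 0.11) and 0.80 ± 0.23 (SE, adjusted p = 0.12) in Con-FMT and were not called.

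Of the 5 sensors, Dhx58 and Zbp1 rose in Con-FMT over both sets. Dhx58 (LGP2, chromosome 11, 100694884 to 100704271) modulates the RNA sensors encoded by Ddx58 and Ifih1. It was at 27.5, 26.4 and 26.3 FPKM in Sa, 38.8, 35.9 and 40.98 FPKM in Con-FMT, 37.03, 27.9 and 30.2 FPKM in A10-FMT and 29.6, 33.1 and 33.6 FPKM in A100-FMT in set 2. In set 1 it was at 31.4 and 29.8 FPKM in Sa, 45.2, 37.8 and 36.5 FPKM in Con-FMT, 34.5, 43.5 and 31.7 FPKM in A10-FMT and 36.6, 38.5 and 37.1 FPKM in A100-FMT. The FMT libraries lay above the Sa libraries throughout in both sets, and the log2 change in Con-FMT was 0.44 ± 0.08 (SE, adjusted p = 0.014).
Zbp1 (chromosome 2, 173206612 to 173218959), which binds left-handed nucleic acids and can start necroptosis, was at 83.4, 96.7 and 104 FPKM in Sa, 124, 127 and 117 FPKM in Con-FMT, 106, 84.1 and 85.98 FPKM in A10-FMT and 84.1, 103 and 93.3 FPKM in A100-FMT in set 2. Its levels in set 1 were 96.9 and 81.8 FPKM in Sa, 118, 116 and 112 FPKM in Con-FMT, 148, 144 and 147 FPKM in A10-FMT and 123, 123 and 109 FPKM in A100-FMT. A10-FMT was the highest group of set 1, without overlap with any other, and overlapped with Sa in set 2. The log2 change in Con-FMT over both sets was 0.37 ± 0.07 (SE, adjusted p = 0.019). Ddx58 (0.42 ± 0.10 SE, adjusted p = 0.057), Ifih1 (0.53 ± 0.13 SE, adjusted p = 0.077) and Eif2ak2 (0.49 ± 0.15 SE, adjusted p = 0.13), the kinase that stops translation when it binds double-stranded RNA, were not called in Con-FMT over both sets.

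Among the transcription factors, Irf7 and Stat2 rose in Con-FMT over both sets, and Irf9 and Irf1 were close to level. Irf7 (chromosome 7, 141263183 to 141266499), the factor that amplifies type I interferon production, was at 181, 172 and 185 FPKM in Sa, 217, 255 and 253 FPKM in Con-FMT, 222, 162 and 174 FPKM in A10-FMT and 193, 249 and 211 FPKM in A100-FMT in set 2. The set 1 libraries held 206 and 185 FPKM in Sa, 241, 250.01 and 229 FPKM in Con-FMT, 237, 277 and 266 FPKM in A10-FMT and 253, 260.0 and 232 FPKM in A100-FMT. Con-FMT and A100-FMT exceeded Sa in both sets, and A10-FMT of set 2 had 1 library above Sa and 2 in or below its range. The log2 change was 0.36 ± 0.08 (SE, adjusted p = 0.046) in Con-FMT.
Stat2 (chromosome 10, 128270498 to 128292853) was at 29.1, 29.98 and 30.9 FPKM in Sa, 37.9, 36.7 and 37.1 FPKM in Con-FMT, 37.7, 32.2 and 33.6 FPKM in A10-FMT and 29.5, 29.5 and 34.1 FPKM in A100-FMT in set 2. It was at 29.3 and 18.6 FPKM in Sa, 41.6, 35.97 and 40.6 FPKM in Con-FMT, 35.2, 34.4 and 37.4 FPKM in A10-FMT and 40.8, 39.6 and 42.6 FPKM in A100-FMT in set 1. Con-FMT and A10-FMT were above Sa without overlap in both sets, and A100-FMT in set 1 alone. The log2 change was 0.52 ± 0.08 (SE, adjusted p = 0.0062) in Con-FMT and 0.42 ± 0.08 (SE, adjusted p = 0.040) in A100-FMT. Irf9 (0.08 ± 0.04 SE, adjusted p = 0.24) and Irf1 (0.09 ± 0.05 SE, adjusted p = 0.25) were not called in Con-FMT.

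The Parp proteins of this group transfer ADP-ribose to other proteins or bind it, and Parp9 works in a complex with the ubiquitin ligase Dtx3l. Parp9, Parp14 and Dtx3l are neighbours on chromosome 16. Parp12 and Parp9 rose in Con-FMT over both sets. Parp12 (chromosome 6, 39086412 to 39118349) was at 56.6, 56.4 and 57.7 FPKM in Sa, 72.6, 74.4 and 70.7 FPKM in Con-FMT, 63.8, 59 and 57.4 FPKM in A10-FMT and 54.5, 57.3 and 55.8 FPKM in A100-FMT in set 2. In set 1 it was at 57.8 and 48.6 FPKM in Sa, 75.03, 71.7 and 68.2 FPKM in Con-FMT, 76.4, 76.4 and 70.2 FPKM in A10-FMT and 71.4, 69.8 and 68.8 FPKM in A100-FMT. Replicates lay close together, with Sa of set 2 between 56.4 and 57.7 FPKM and Con-FMT between 70.7 and 74.4 FPKM. It was called within set 2 alone (0.35 ± 0.06 SE, adjusted p = 0.046) as well as over both sets in Con-FMT (0.39 ± 0.04 SE, adjusted p = 0.00086) and A10-FMT (0.28 ± 0.04 SE, adjusted p = 0.028).
Parp9 (chromosome 16, 35938470 to 35972621) was at 64.1, 65.1 and 66.6 FPKM in Sa, 74.8, 72.7 and 69.1 FPKM in Con-FMT, 67.3, 65.3 and 66.3 FPKM in A10-FMT and 59.9, 60.6 and 60.7 FPKM in A100-FMT in set 2. The levels of set 1 were 59.8 and 35.7 FPKM in Sa, 70.3, 68.8 and 71.1 FPKM in Con-FMT, 74.4, 72.5 and 66.1 FPKM in A10-FMT and 73.04, 67.4 and 68.2 FPKM in A100-FMT. In set 2 the A100-FMT libraries were below all Sa libraries and Con-FMT was above them. The log2 change in Con-FMT was 0.37 ± 0.08 (SE, adjusted p = 0.047).
Parp14 was at 46.7, 46.7 and 47.3 FPKM in Sa, 53.2, 53.2 and 52.3 FPKM in Con-FMT, 48.8, 44.9 and 44.5 FPKM in A10-FMT and 39.7, 39.6 and 46.2 FPKM in A100-FMT in set 2. It was at 41.3 and 17.7 FPKM in Sa, 53.5, 49.5 and 55.8 FPKM in Con-FMT, 52.7, 48.2 and 49.6 FPKM in A10-FMT and 61.7, 55.9 and 57.4 FPKM in A100-FMT in set 1. As for Parp9, A100-FMT was below Sa and Con-FMT above it without overlap in set 2. The log2 changes of Parp14 and Dtx3l over both sets, 0.55 ± 0.13 (SE, adjusted p = 0.053) and 0.42 ± 0.10 (SE, adjusted p = 0.064), did not pass the test.

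Of Ly6a, Ly6e and Lgals3bp, which encode membrane-anchored or secreted proteins, Ly6a passed the test in Con-FMT over both sets. Ly6a (Sca-1, chromosome 15, 74994877 to 74998031) is a membrane-anchored protein also known from stem cells and from regenerating gut epithelium. It was at 110.0, 86.9 and 119 FPKM in Sa, 237, 221 and 241 FPKM in Con-FMT, 176, 167 and 129.9 FPKM in A10-FMT and 127, 174 and 140.5 FPKM in A100-FMT in set 2. Set 1 had 115 and 107 FPKM in Sa, 237, 199 and 189.8 FPKM in Con-FMT, 217, 215 and 218 FPKM in A10-FMT and 268, 193 and 139 FPKM in A100-FMT. All FMT libraries exceeded all Sa libraries of their set, and in set 2 Con-FMT was also above A10-FMT and A100-FMT without overlap. The Con-FMT mean of set 2 was 2.21-fold that of Sa, with a log2 change of 1.15 ± 0.18 (SE, adjusted p = 0.030) in that set. Over both sets Ly6a rose in Con-FMT (log2 change of 1.02 ± 0.13 SE, adjusted p = 0.0017), A10-FMT (0.77 ± 0.13 SE, adjusted p = 0.037) and A100-FMT (0.64 ± 0.13 SE, adjusted p = 0.040).
Ly6e, which blocks the entry of some viruses, had the highest mean of all members. It was at 428, 353 and 429 FPKM in Sa, 514, 555 and 551 FPKM in Con-FMT, 540.2, 479.8 and 422 FPKM in A10-FMT and 498, 533 and 449 FPKM in A100-FMT in set 2. In set 1 it was at 492 and 505 FPKM in Sa, 582, 549 and 507 FPKM in Con-FMT, 454, 508 and 444 FPKM in A10-FMT and 526, 529 and 497 FPKM in A100-FMT. Con-FMT was above Sa without overlap in both sets, and the log2 change of 0.28 ± 0.07 (SE, adjusted p = 0.074) did not pass the test.
Lgals3bp, a secreted glycoprotein, was at 352, 343 and 366 FPKM in Sa, 390.3, 403 and 405 FPKM in Con-FMT, 406, 347 and 341 FPKM in A10-FMT and 363, 363 and 322 FPKM in A100-FMT in set 2. Its set 1 levels were 391 and 447 FPKM in Sa, 409, 402 and 392 FPKM in Con-FMT, 379, 423 and 405 FPKM in A10-FMT and 388, 409 and 383 FPKM in A100-FMT. The library Sa set 1 replicate 3 was the highest of all here, and the log2 change in Con-FMT was 0.06 ± 0.05 (SE, adjusted p = 0.47).
Ifi27l2b, of the interferon-inducible Ifi27 family, spread widely within groups. It was at 169, 467 and 353 FPKM in Sa, 474, 599.8 and 86.4 FPKM in Con-FMT, 308, 129 and 105 FPKM in A10-FMT and 94.3, 369 and 127 FPKM in A100-FMT in set 2. Set 1 gave 218 and 399 FPKM in Sa, 294, 534 and 452 FPKM in Con-FMT, 493, 459.9 and 427 FPKM in A10-FMT and 542, 542 and 373 FPKM in A100-FMT. In set 2, libraries of the same group differed severalfold, and the log2 change in Con-FMT was 0.22 ± 0.46 (SE, adjusted p = 0.78). The remaining inducible genes Rtp4, Ifi44, Ifi35, Sp100 and Xaf1 had values of 0.45, 0.69, 0.11, 0.51 and 0.45 (log2) in Con-FMT over both sets, and none passed the test.

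Whether FMT from AOS-dosed donors differed from FMT from control donors is a comparison that uses no Sa library. In set 2 the members were lower in both AOS groups than in Con-FMT. The median log2 change was -0.32 in A10-FMT, with 39 of 40 members lower, and -0.25 in A100-FMT, with 37 of 40 lower, against medians of 0.05 and 0.04 over all genes. All 3 libraries were below all 3 of Con-FMT for 24 of 40 members in A10-FMT (8.3% of all genes) and for 24 of 40 in A100-FMT (6.49%). Both comparisons share the Con-FMT libraries. Only Oasl1 passed the test, as a decrease in A10-FMT (-0.60 ± 0.12 SE, adjusted p = 0.036), where 0.37% of all genes were called decreased and 0.00882% increased. No gene of the table was called between Con-FMT and A100-FMT of set 2 in either direction (0% and 0%), and 20 and 14 members had an unadjusted p under 0.05 in the 2 comparisons, against 11.9% and 11.2% of all genes. When Sa set 1 was reduced to 1 library, which enters these comparisons through the shared estimate of the spread alone, 13 members were called decreased in A10-FMT (1.73% of all genes) and 11 in A100-FMT (0.944%).
In set 1 the members lay close to Con-FMT. The median log2 changes against Con-FMT were 0.01 in A10-FMT and 0.03 in A100-FMT. Oasl1 (0.39 ± 0.12 SE, adjusted p = 0.027) and Zbp1 (0.34 ± 0.10 SE, adjusted p = 0.021) were called increased in A10-FMT and Xaf1 (-0.71 ± 0.23 SE, adjusted p = 0.038) decreased, where 5.2% and 11.5% of all genes were. In A100-FMT no member was called, against 0.194% of all genes increased and 0.212% decreased, and no member had an unadjusted p under 0.05. Of the 4 groups of set 2, Con-FMT had the highest mean for 36 of 40 members, and Sa had the lowest for 21, A10-FMT for 12 and A100-FMT for 7. In set 1 the highest mean was spread over Con-FMT (11 members), A10-FMT (14) and A100-FMT (14), and Sa had the lowest for 35.

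The sets were compared directly within each treatment. Con-FMT did not differ detectably, with no member called (0.00882% of all genes increased and 0% decreased) and 2 with an unadjusted p under 0.05 (5.95% of all genes). A10-FMT was higher in set 1, with 13 of 40 members called (8.62% of all genes increased), led by Oasl1 (0.96 ± 0.12 SE, adjusted p = 3.4e-05) and Zbp1 (0.67 ± 0.10 SE, adjusted p = 0.00012), and a median log2 difference of 0.30. For A100-FMT all 40 members had a positive log2 difference of set 1 minus set 2, with a median of 0.27. No gene of the table passed the test there (0% and 0% in the 2 directions), and 17 members had an unadjusted p under 0.05, against 14.5% of all genes. Markers of the proximal small intestine were also high in A10-FMT of set 1, at a summed 3111 to 4083 FPKM against 1199 to 1860.5 in A10-FMT of set 2. So were those of the distal small intestine (1342 to 1713 against 634 to 1078 FPKM), T cells (65.2 to 121 against 39.5 to 46.5) and pan-leukocyte markers (6.37 to 14.3 against 5.01 to 6.02). Higher too were the epithelial markers (10384.2 to 11541.1 against 8085.41 to 8779.27) and those of plasmacytoid dendritic cells (93.65 to 115.93 against 73.15 to 74.53). Myeloid markers went the other way (60.18 to 66.42 against 72.99 to 80.64), and B cell markers overlapped (88.13 to 102.72 against 89.75 to 91.97). The part of these lists in the difference was not tested.
In Sa, 10 members were called lower in set 1 (25%, against 24.2% of all genes) and 4 higher (10%, against 13.9%). These shares were near those of the table as a whole. The smallest p among the lower ones belonged to Parp14 (-0.77 ± 0.19 SE, adjusted p = 0.011) and Parp9 (-0.49 ± 0.12 SE, adjusted p = 0.011). The higher ones were Oas1a, Bst2, Lgals3bp and Ly6e. None of the calls in Sa remained without Sa set 1 replicate 3. The change from Sa was larger in set 1 than in set 2 for 16 members in A10-FMT (10.6% of all genes) and for 15 in A100-FMT (13.5%), tested as an interaction. For Con-FMT no member was called (0% of all genes), and 15 had an unadjusted p under 0.05 (34.3% of all genes). Without that Sa library the interaction was called for 10 members in A10-FMT (7.13% of all genes) and 6 in A100-FMT (2.15%), and the members' median difference fell from 0.59 to 0.20 in A10-FMT and from 0.47 to 0.21 in A100-FMT.

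**Figure D4:**
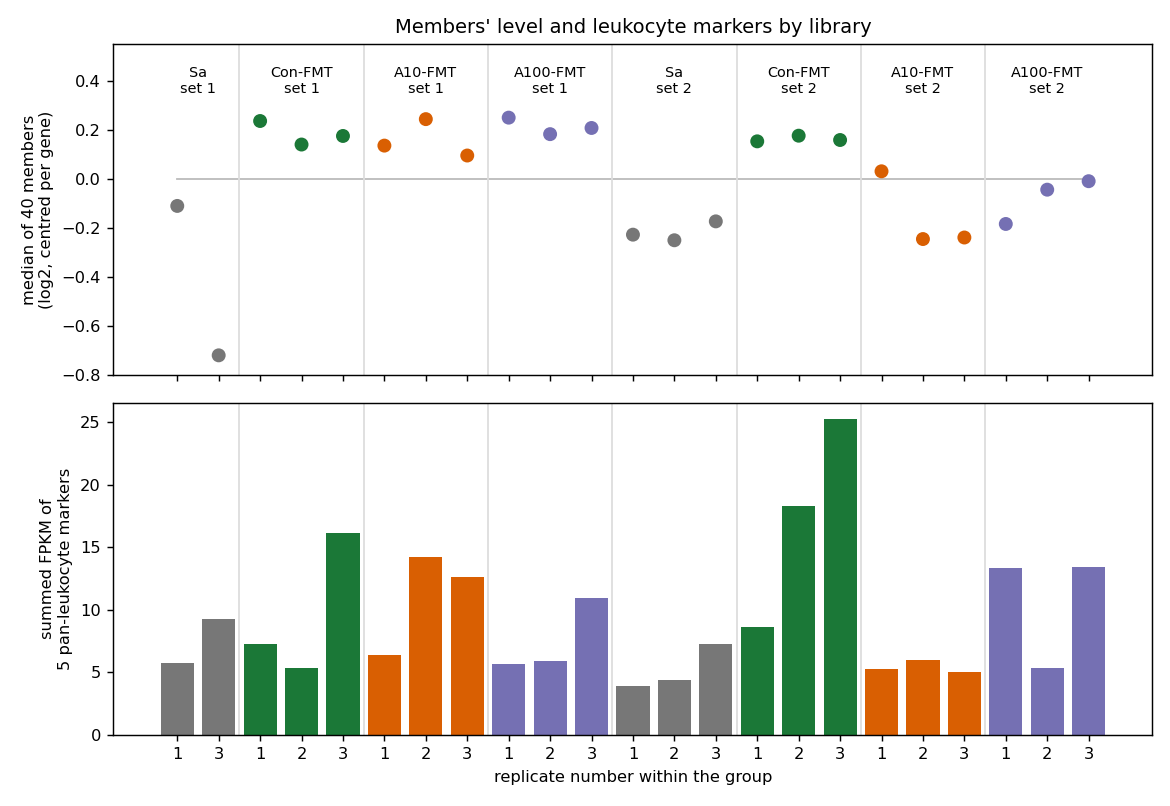
The upper panel gives for each of the 23 libraries the median over the 40 members of log2(FPKM + 1) minus the gene's mean, and the lower panel the summed FPKM of 5 pan-leukocyte markers, with colours for the treatments. In set 2 the Con-FMT medians are 0.15, 0.18 and 0.16 while the leukocyte sums of these libraries run from 8.66 to 25.3 FPKM, and Sa set 1 replicate 3 is lowest in the upper panel at -0.72.

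Read by library, the median of the members (log2, centred per gene) was between 0.10 and 0.25 in all 9 FMT libraries of set 1 and between 0.15 and 0.18 in Con-FMT of set 2. It was -0.23, -0.25 and -0.17 in Sa of set 2 and -0.11 and -0.72 in Sa of set 1. In set 2, A10-FMT was divided, with 0.03 in replicate 1 and -0.24 in each of the other 2, and A100-FMT ran from -0.18 to -0.01. The second column named for Sa set 1 replicate 3 had a median of -0.55, with no member above its own mean, and a rho of -0.07 between deviation and GC content across genes.

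The sums of several marker lists also differed between the groups of set 2. The 5 pan-leukocyte markers (Ptprc, Coro1a, Cd52, Laptm5 and Cd53) summed to 8.66 to 25.3 FPKM in Con-FMT, 3.91 to 7.23 in Sa, 5.01 to 6.02 in A10-FMT and 5.36 to 13.4 in A100-FMT. The 9 T cell markers with an entry summed to 71.3 to 209.8 FPKM in Con-FMT, 53.7 to 95.9 in Sa, 39.5 to 46.5 in A10-FMT and 35.97 to 90.8 in A100-FMT. Erythroid markers summed to 4.53 to 40.4 FPKM in Con-FMT and 0.94 to 2.85 in Sa. Pancreatic acinar markers went the other way, with 3.26 to 3.87 FPKM in Con-FMT and 4.14 to 4.41 in Sa. The sums of the other lists, T cells and epithelium (8809 to 9165 and 9147 to 10024) included, overlapped between Con-FMT and Sa. No list had a marker at 0 in all libraries, and none of the 3 pan-leukocyte and 5 T cell markers tested was called within set 2 or over both sets. The part of any of these cell types in the members' change was not tested. Set 1 had pan-leukocyte sums of 5.75 to 9.28 FPKM in Sa and 5.31 to 16.1 in Con-FMT. Of 8 B cell, 11 myeloid and 5 plasmacytoid dendritic cell markers, only 2 of each list were tested, and none was called within set 2 or over both sets.

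The rest of the pathway was read from lists of its other genes. Of 21 interferon genes, 8 had an entry. Ifnk was listed at 0 in all 23 libraries, the epithelial type III interferons Ifnl2 and Ifnl3 had means of 0.096 and 0.084 FPKM with a highest value of 0.53, and Ifng, made by T cells, had a mean of 0.030. None reached the level needed for a test. All 6 receptor chains were measured and none was called in any FMT group over both sets. The receptors for type I interferon had means of 8.38 (Ifnar1) and 7.33 FPKM (Ifnar2), the type III receptor chains 4.16 (Ifnlr1) and 50.0 (Il10rb), and the interferon gamma receptor chains 68.5 (Ifngr1) and 82.1 (Ifngr2).
Among the signalling genes, the kinases Jak1 and Tbk1, with 0.21 ± 0.06 (SE, adjusted p = 0.15) and 0.33 ± 0.11 (SE, adjusted p = 0.15) in Con-FMT, did not pass the test. None of 9 negative regulators was called over both sets. Those with the smallest p in any of the 3 FMT groups over both sets are given by their values in Con-FMT. They were the feedback inhibitor Socs1 (0.34 ± 0.10 SE, adjusted p = 0.11), the repressor Irf2bp2 (-0.07 ± 0.05 SE, adjusted p = 0.34) and the phosphatase Ptpn2 (0.17 ± 0.10 SE, adjusted p = 0.28). A further list held 54 tested interferon-stimulated genes that are not members. Of these, 17 rose in Con-FMT over both sets (0.67% of all genes). A10-FMT had 1 such increase (0.106%) and A100-FMT had 5 (0.829%). These fits hold Sa set 1 replicate 3, without which 0.335%, 0% and 0% of all genes were increased. None of the list fell, and the median log2 changes of its genes in the 3 groups were 0.29, 0.18 and 0.22. The smallest p-values there over the 3 groups belonged to Trafd1, Phf11b and Znfx1. Their values in Con-FMT were 0.25 ± 0.04 (SE, adjusted p = 0.0046), 0.80 ± 0.12 (SE, adjusted p = 0.0046) and 0.40 ± 0.06 (SE, adjusted p = 0.0046).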

How the data were processed

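RNA of mouse small intestine was sequenced on a HiSeq instrument, and the authors deposited 1 table of FPKM with 19215 entries and 24 columns for 23 libraries; the aligner is not given in the sources used here, and the submitters' processing notes name mm10. FPKM carry no counts, so the depth is unknown and no counting interval was given. Symbols came from the NCBI Gene numbers (17725 of 17842 matched).

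The 41 members and all lists were chosen with earlier results of these data known. Values were tested with limma 3.58.1 in R 4.3.3 on log2(FPKM + 1), for the 11337 entries with a mean of at least 1 FPKM, with 1 mean per group over all 23 libraries, a trended variance and Benjamini-Hochberg adjustment over all entries (call at 0.05). The study's own test needs read numbers. The effect over both sets is the mean of the set effects. The script was tested on simulated data. P-values measure the spread between these libraries, which may be technical.

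Members given with every library's value were those called over both sets, those called within set 2, the 3 highest and 3 lowest by mean, and up to 2 per comparison between FMT groups or sets. A result on the signalling genes is not reported here. Alternatives were another pseudocount, no filter, scaling, a replicate block, GC and length adjustment, the compared groups alone, the other column, and each library left out.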

Additional observations from a re-analysis of the deposited data

Results flagged for a closer look

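The change from Sa was larger in set 1 than in set 2 for 16 members in A10-FMT (10.6% of all genes) and for 15 in A100-FMT (13.5%), by the limma interaction with adjusted p under 0.05. It was smaller for 0 members in each, against 17.8% and 13.3% of all genes. For A10-FMT, the log2 differences between the sets' changes of the genes described above were 1.42 for Ifit1, 0.92 for Oasl1, 0.61 for Oasl2, 0.72 for Isg15, 0.79 for Usp18, 1.64 for Rsad2, 0.83 for Cmpk2, 0.58 for Parp9, 0.40 for Parp12, 0.89 for Parp14, 0.76 for Zbp1, 0.92 for Trim30a and 1.75 for Herc6. For A100-FMT they were 1.03 for Ifit1, 0.58 for Oasl2, 1.24 for Rsad2, 0.74 for Stat2, 0.68 for Cmpk2, 0.69 for Parp9, 0.42 for Parp12, 1.24 for Parp14, 0.43 for Zbp1, 1.03 for Trim30a and 1.61 for Herc6. All these differences hold the 2 Sa libraries of set 1, and without Sa set 1 replicate 3 the calls fell to 10 and 6 members, against 7.13% and 2.15% of all genes. The members' median interaction fell from 0.59 to 0.20 in A10-FMT and from 0.47 to 0.21 in A100-FMT.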

How the results depend on the processing

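The replicate numbers are shared between groups, but same-numbered libraries did not deviate together (Pearson r of their deviations from -0.352 to 0.319, median 0.002, against -0.352 to 0.371, median -0.004, for other pairs). No pairing by number was seen in this check, which cannot exclude one, since the labels do not say what the numbers stand for. With the replicate block, 3 members were called in A100-FMT over both sets, 0 in Con-FMT vs. A10-FMT of set 2, 1 in Con-FMT vs. A100-FMT of set 2 and 0 in Sa between the sets.

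The 46 calls of named members kept their direction under every setting run, but 32 no longer passed the test with the compared groups alone, 16 with no filter, 11 with the replicate block, 9 with scaling, 3 with the column of the description and 5 with that and GC and length adjustment, and 286 of 1058 with 1 library left out at a time. With a pseudocount of 0.1 no count moved by over 1.5 times. Of 40 members, with the compared groups alone, the calls were 0 in each FMT group of set 1, 8 in Con-FMT and 0 in A10-FMT and A100-FMT over both sets, 6 and 0 in Con-FMT vs. A10-FMT of sets 1 and 2, 6 and 0 in the interactions of A10-FMT and A100-FMT, 0 in Sa between sets and 21 in A10-FMT between sets. The counts of called members in this section join both directions. Of the 6 in Con-FMT vs. A10-FMT of set 1, 2 rose and 4 fell, against 5.05% and 10.7% of all genes. The 6 of the A10-FMT interaction and the 21 of A10-FMT between sets were all higher in set 1. Among all genes 5.09% and 10.2% were higher there, and 7.88% and 28.2% lower. With the column of the description they were 15 in Con-FMT of set 1, 28 and 11 in Con-FMT and A10-FMT over both sets, 7 and 5 in Con-FMT vs. A10-FMT of sets 1 and 2, 5 in Con-FMT vs. A100-FMT of set 2, and 3 and 8 in Sa and A100-FMT between sets. Of all genes, 0.37% were increased in Con-FMT of set 1, and 0.97% and 0.82% over both sets. Con-FMT vs. A10-FMT of set 1 had 2 members increased and 5 decreased, against 9.05% and 23.8% of all genes. The 5 and 5 of set 2 were decreases (1.15% and 0.696% of all genes). Sa had 3 lower in set 1 (2.76%) and A100-FMT 8 higher (1.28%). GC and length adjustment gave 26 and 12 in Con-FMT and A10-FMT over both sets, 8 and 1 in Con-FMT vs. A10-FMT and A100-FMT of set 2, and 8, 22 and 1 in Sa, A10-FMT and A100-FMT between sets. Of the 8 in Sa, 1 was higher and 7 lower in set 1, against 12.8% and 13.4% of all genes. Increases over both sets were 0.997% and 0.817% of all genes in Con-FMT and A10-FMT. Decreases against Con-FMT in set 2 were 1.42% and 0.18%. Higher in set 1 were 14.6% of all genes in A10-FMT and 0.0855% in A100-FMT. Both together, chosen after seeing the data, gave 14 in Con-FMT of set 1, 29 and 15 over both sets, 6 and 4 against Con-FMT in set 2, and 1, 25 and 9 between sets. Increases among all genes were 0.275% in Con-FMT of set 1, and 1.02% and 1.39% over both sets in Con-FMT and A10-FMT. Decreases against Con-FMT in set 2 were 1.86% and 1.02%. Between sets, 2.47% were lower in Sa of set 1, and 17.1% and 2.06% higher in A10-FMT and A100-FMT of set 1. With no filter, 0 were called in Con-FMT of set 2, 1 each in A10-FMT and A100-FMT over both sets, 0 and 1 against Con-FMT in set 2, and 1 in A100-FMT between sets. Scaling gave 6 and 1 in A10-FMT and A100-FMT over both sets, 4 and 1 against Con-FMT in set 2, and 21 in A10-FMT between sets. For no filter, scaling and the replicate block the share of all genes was not computed, so those counts cannot be set against the table as a whole. Why the counts moved was not tested.

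Leaving out 1 library at a time gave median log2 changes in set 1 of 0.27 to 0.998 in Con-FMT, 0.27 to 0.96 in A10-FMT and 0.27 to 0.94 in A100-FMT, in set 2 of 0.33 to 0.36, -0.0516 to 0.0841 and 0.09 to 0.20, and over both sets of 0.30 to 0.65, 0.15 to 0.48 and 0.21 to 0.57. A10-FMT in set 2 turned to -0.0516 without its replicate 1. The highest counts of the ranges that follow came without Sa set 1 replicate 1, which left 1 Sa library in that set. They are not set against the share of all genes. The calls ranged in set 1 from 0 to 32, 9 to 30 and 2 to 32, in set 2 from 0 to 7, 0 to 1 and 0 to 1, over both sets from 13 to 36, 0 to 30 and 0 to 34, against Con-FMT from 0 to 9 and 0 to 13 (A10-FMT, sets 1 and 2) and 0 to 11 (A100-FMT, set 2), in the interactions from 0 to 27, 10 to 28 and 6 to 27, and between sets from 0 to 25 in Sa, 11 to 23 in A10-FMT and 0 to 16 in A100-FMT. The genes without a call that changed sign in Con-FMT over both sets were Ifi27l2b (-0.002 without Sa set 1 replicate 1 and -0.0443 without Con-FMT set 2 replicate 2) and Ptpn2 (-0.0879 with the column of the description, -0.0794 with both adjustments and -0.0273 without Sa set 1 replicate 3).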
